A study of Homo sapiens with 9 samples.

Results

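The 49 genes described here license replication origins, unwind and copy DNA at the fork and supply its nucleotides. They were chosen by gene symbol from the roles of their products, and all 49 were found among the 24344 genes of the count table. RNA was sequenced from MDA-MB-231 cells, an established human breast adenocarcinoma line, after 48 h with one of 3 injections. Compound Kushen Injection (CKI), which is prepared from the herbs Kushen and Baituling, was used at 2 mg/mL of total alkaloids. Each single-herb injection was manufactured as CKI is and given at a matching dilution. Each treatment had 3 libraries, 9 in all, and the comparisons ask how the levels of these genes differ between the injections. Untreated cells were not analysed here, so every difference below lies between 2 injections, in cells of a single line. A fall or rise is named relative to the other injection, and which of the 2 changed the gene from its untreated level was not examined here. The sources used here do not say whether the libraries of a treatment came from separate cultures, so p-values measure the spread between libraries, which may be technical.

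Replication is licensed in G1, when the origin recognition complex (ORC) on DNA and the loading factors CDC6 and CDT1 place rings of the MCM2-7 helicase at origins, and geminin later binds CDT1 and prevents a further round of loading. The kinase CDC7 with its partner DBF4 then activates the helicase, which joins CDC45 and the GINS complex, and polymerases, the PCNA clamp, its loader RFC and the single-strand binding protein RPA build the fork. Many of these genes are known targets of the E2F transcription factors, are transcribed most strongly around the entry into S phase and serve as proliferation markers in tumours. In bulk RNA, fewer cells in S phase and less RNA of these genes per cell cannot be told apart.

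The total count per library was 20144628 to 23782071, and the 49 genes had from 178 to 9276 counts each in a library. Counting error alone was 7.50% at the lowest and 1.04% at the highest of these counts. Levels are given as CPM, the count scaled to a common library size after TMM, with the 3 libraries of a treatment in the order of their numbers. Values with ± are log2 fold changes with their SE from edgeR's quasi-likelihood test, and adjusted p-values come from the same test over all 14195 genes. The 8 genes listed as expressed in MDA-MB-231 cells, among them VIM and CD44, were at 126 CPM or more in every library. Their summed level nevertheless moved with the treatments, from 8573 to 9070 CPM with Baituling, 4147 to 4210 with Kushen and 3205 to 3384 with CKI. All 8 were lower by the test in CKI and in Kushen than in Baituling, where 37.0% and 36.1% of all genes were lower. The part of this movement of the 8 genes in the values of the members was not tested. The hormone receptor genes ESR1 and PGR were at 0.177 CPM or less. Of the other genes listed as absent or low, CDH1 reached 2.82, ERBB3 13.7 and EPCAM 13.8 CPM. The keratinocyte markers KRT5 and KRT14, both of the 2 on that list, were absent at this depth from Baituling replicate 1 but stood at 5.10 and 2.74 CPM in Baituling replicate 2 and at 6.85 and 2.21 CPM in replicate 3. In the CKI and Kushen libraries KRT5 was at 0, and KRT14 was at 0 but for 0.118 CPM in CKI replicate 1. Of 10 further keratinocyte markers, added after seeing the data, KRT6A (2.85 and 3.53 CPM), DSG3 (0.384 and 0.607) and DSC3 (0.329 and 0.221) were likewise found in Baituling replicates 2 and 3 and at 0 in the other 7 libraries. The sum of the 10 did not set these libraries apart, at 118, 117 and 124 CPM in Baituling replicates 1, 2 and 3 and at 39.6 to 51.8 CPM in CKI and Kushen, most of it S100A2 in Baituling. The source of the reads in replicates 2 and 3 was not tested. Results are therefore also given without Baituling replicates 2 and 3, an alternative chosen after seeing the data that leaves a single Baituling library and assumes that it varies like the other groups.

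The replication genes were lower in both treatments that contain Kushen than in Baituling, and slightly lower in CKI than in Kushen. Summed over the 49 genes, the CKI libraries held 2317 to 2440 CPM, the Kushen libraries 2625 to 2725 CPM and the Baituling libraries 4496 to 4768 CPM, and the ranges did not overlap. Against Kushen, CKI was lower for 22 members and higher for 0 by edgeR's quasi-likelihood test at an adjusted p under 0.05, where 20.2% of the 14195 genes tested were lower and 19.6% were higher. At an unadjusted p under 0.05 the count of higher members was also 0, as it was by DESeq2. The median log2 fold change of the members was -0.16, against 0.01 over all genes, with LIG1 lowest at -0.56 and GINS3 highest at 0.14. None of the 49 changed by more than 1 on the log2 scale in this comparison, while 0.197% of all genes fell and 1.70% rose by that much. The CKI libraries lay below the Kushen libraries without overlap for 23 members and above them for 0, beside 24.2% and 25.2% of all genes.

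Against Baituling, CKI was lower for 42 of the 49 members and higher for 4, while 37.0% of all genes were lower and 39.1% higher. The fall exceeded 1 on the log2 scale for 17 members, against 7.91% of all genes, and no member rose that far, as 11.2% of all genes did. The CKI libraries lay below the Baituling libraries for 41 members and above them for 4, against 38.0% and 40.3%. The median was -0.78 over the members and 0.03 over all genes. Kushen was lower than Baituling for 41 members and higher for 4, beside 36.1% and 35.6% of all genes, 14 members fell and 0 rose by more than 1, beside 6.73% and 8.50%, and the libraries did not overlap for 42 lower and 4 higher members, beside 36.7% and 36.4%. Its median was -0.64 over the members and 0.02 over all genes. These 2 comparisons use the same Baituling libraries, so their likeness is not independent evidence. Scaling by library totals in place of TMM raised the median of all genes by 0.29 in CKI against Baituling, 0.21 in Kushen against Baituling and 0.08 in CKI against Kushen, and changed the counts of lower and higher members to 36 and 7, 34 and 6, and 19 and 2. The members' medians were then -0.49, -0.43 and -0.08, beside 0.32, 0.23 and 0.08 over all genes. The shares of all genes called with library totals were not counted, so these counts have no background beside them. Without Baituling replicates 2 and 3 the members' medians were -0.78, -0.66 and -0.17, beside 0.04, 0.02 and 0.01 over all genes.

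**Figure D1:**
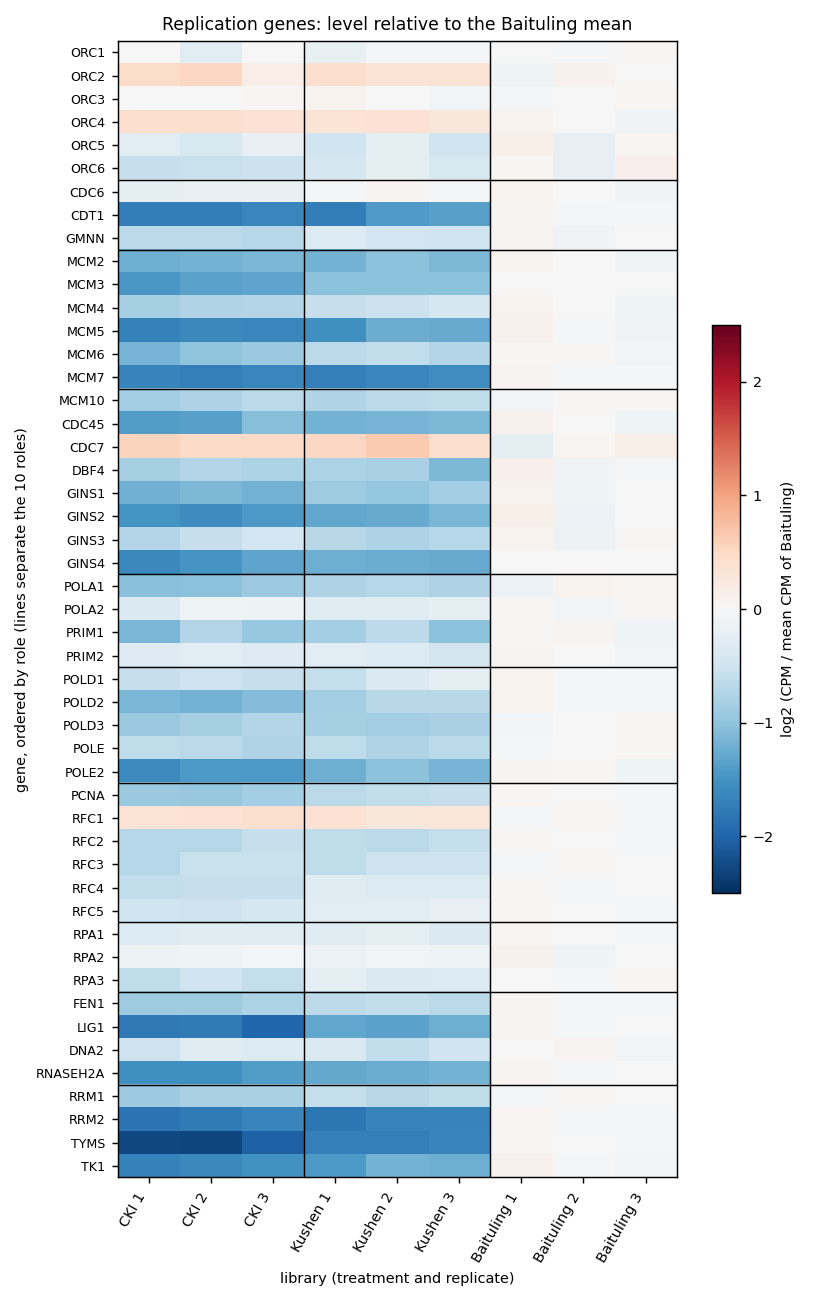
Heatmap of the 49 replication genes (rows, ordered by role, lines between the 10 roles) in the 9 libraries (columns), coloured by log2 of the CPM over the mean CPM of the Baituling libraries. The CKI and Kushen columns are blue for most genes, deepest for TYMS and LIG1 in CKI, while ORC2, ORC4, CDC7 and RFC1 are red there.

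Histone genes and nuclear-retained RNAs moved with the treatments as well. The summed level of the listed histone genes lay between 587 and 605 CPM with CKI, between 246 and 262 with Kushen and between 89.1 and 97.2 with Baituling, and that of NEAT1, MALAT1, KCNQ1OT1 and MEG3 between 1044 and 1824, 1028 and 2002, and 131 and 158 CPM. Of the 11 histone genes tested, 9 were higher and 2 lower in CKI than in Baituling, beside 39.1% and 37.0% of all genes. The linker histone gene H1-2 rose most against Baituling, by 4.13 ± 0.06 in CKI (adjusted p = 7.19e-21) and 2.61 ± 0.06 in Kushen (adjusted p = 9.28e-18), and H1-4 rose most in CKI against Kushen (2.46 ± 0.19, adjusted p = 9.21e-09), where H4C3 was lowest at -0.14 ± 0.46 (adjusted p = 0.834). H2AC20, at 2.15 to 2.63 CPM in Baituling and 0.133 to 0.355 CPM in the other libraries, was lowest against Baituling, with -2.93 ± 0.28 in CKI (adjusted p = 1.14e-08) and -3.83 ± 0.32 in Kushen (adjusted p = 2.19e-09). The part of this difference in RNA composition in the values of the members was not tested.

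The promoters of the members hold E2F-like words more often than those of other genes, and 8 of them are shown, those of the 6 lowest and the 2 highest members with a window by log2 fold change in CKI against Baituling. RefSeq promoter windows, from 250 bases before to 50 after the start on GRCh38.p14, were found for 42 of the 49 members, and not for MCM4, MCM5, GINS4, POLD3, RPA2, RPA3 and DNA2. An E2F-like word, TTTCCCGC, TTTGGCGC, TTTCGCGC or TTTGCCGC on either strand, where neighbouring words may overlap, was present in 18 of the 42, or 42.9%, against 5.18% of the 11245 windows of tested genes. The 150 bases before the start are printed 5′ to 3′ on the strand of the gene, and capitals mark E2F-like words that lie whole inside the stretch.
TYMS (chr18:657503-657652, plus strand): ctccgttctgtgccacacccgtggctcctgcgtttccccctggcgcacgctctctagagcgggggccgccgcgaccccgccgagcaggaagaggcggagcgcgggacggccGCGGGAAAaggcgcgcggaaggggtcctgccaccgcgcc
LIG1 (chr19:48170345-48170494, minus strand): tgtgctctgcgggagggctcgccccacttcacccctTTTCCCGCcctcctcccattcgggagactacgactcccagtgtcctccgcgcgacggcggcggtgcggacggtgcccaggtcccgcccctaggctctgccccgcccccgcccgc
RRM2 (chr2:10122589-10122738, plus strand): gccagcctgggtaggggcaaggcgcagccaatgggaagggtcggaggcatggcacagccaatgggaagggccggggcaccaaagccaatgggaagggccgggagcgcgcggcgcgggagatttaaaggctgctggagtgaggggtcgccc
CDT1 (chr16:88803639-88803788, plus strand): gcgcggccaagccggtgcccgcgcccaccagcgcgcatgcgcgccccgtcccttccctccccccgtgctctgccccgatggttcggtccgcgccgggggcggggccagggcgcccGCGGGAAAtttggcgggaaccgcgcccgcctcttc
MCM7 (chr7:100101398-100101547, minus strand): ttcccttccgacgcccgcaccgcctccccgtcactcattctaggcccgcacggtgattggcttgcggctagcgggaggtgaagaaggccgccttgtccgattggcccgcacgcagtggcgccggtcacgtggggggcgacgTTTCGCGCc
TK1 (chr17:78187205-78187354, minus strand): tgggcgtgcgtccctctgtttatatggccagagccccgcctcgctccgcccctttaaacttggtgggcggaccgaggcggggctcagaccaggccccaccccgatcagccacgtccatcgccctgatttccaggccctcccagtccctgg
CDC7 (chr1:91500701-91500850, plus strand): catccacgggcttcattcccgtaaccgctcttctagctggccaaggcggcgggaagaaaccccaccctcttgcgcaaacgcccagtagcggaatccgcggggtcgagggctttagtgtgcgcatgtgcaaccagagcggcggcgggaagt
ORC4 (chr2:148021552-148021701, minus strand): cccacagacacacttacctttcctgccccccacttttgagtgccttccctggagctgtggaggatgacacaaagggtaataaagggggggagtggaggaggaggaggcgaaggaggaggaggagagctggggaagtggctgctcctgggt
TYMS and CDT1 each hold GCGGGAAA, the reverse complement of TTTCCCGC, with its first base at -39 (TYMS) and -35 (CDT1) from the start. LIG1 holds TTTCCCGC at -114, and MCM7 holds TTTCGCGC at -9 and a second word upstream of the printed stretch. RRM2 and TK1, also among the 6 lowest, hold none of the words, and CCAAT stands 3 times in the window of RRM2. CDC7 and ORC4, which were higher in CKI and Kushen than in Baituling, hold none of the words in their whole windows, and neither do ORC2 and RFC1, the other members that were higher. A missing word says only that these letters are not in the window.

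Of the other words searched on both strands, CCAAT was in 54.8% of the members' windows and in 36.4% of those of tested genes. The GC box GGGCGG was in 66.7% and 69.3%, and TTTGAA, the cell cycle homology region word of mitotic genes, in 4.76% and 9.72%. The 18 members with an E2F-like word had a median log2 fold change of -1.10 in CKI against Baituling, from -2.20 for TYMS to 0.01 for ORC3. The 24 without it had a median of -0.63, from -1.75 for RRM2 to 0.51 for CDC7. The ranges overlapped widely, and RRM2, TK1 and RNASEH2A were among the lowest members without such a word.

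**Figure D2:**
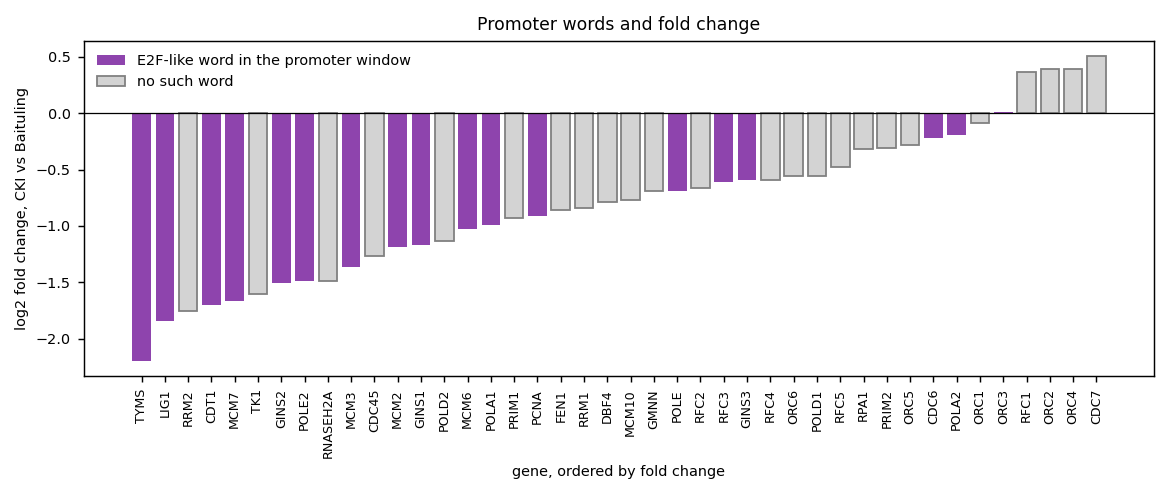
Bars of the log2 fold change in CKI against Baituling for the 42 members with a promoter window, ordered from lowest to highest. Filled bars have an E2F-like word in the window (18 members) and grey bars have none (24 members), and the 4 bars above 0.3 at the right, RFC1, ORC2, ORC4 and CDC7, are grey.

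The origin recognition complex had the median nearest 0 of the 10 roles, -0.04 in both comparisons with Baituling. It marks the sites where the helicase is loaded, and its subunits ORC1 to ORC5 form the ring that binds DNA, with ORC6 attached. Against Baituling, CKI was lower for ORC5 and ORC6, higher for ORC2 and ORC4, and not different by the test for ORC1 and ORC3. Of all genes, 37.0% were lower and 39.1% higher there, near the shares of these 6. With library totals the value of ORC5 turned to 0.003, and ORC1 and ORC3 were called higher. Against Kushen, none of the 6 passed the test in the main fit, beside 20.2% of all genes lower and 19.6% higher. With library totals ORC4 was higher in CKI than in Kushen (0.15, adjusted p = 0.0342).

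ORC2 was at 29.97, 31.4 and 24.6 CPM in CKI, 29.4, 27.8 and 27.7 in Kushen and 20.2, 23.4 and 21.9 in Baituling. All CKI and Kushen libraries were above all Baituling libraries. The log2 fold change was 0.39 ± 0.08 against Baituling in CKI (adjusted p = 0.000282) and 0.37 ± 0.08 in Kushen (adjusted p = 0.00053). ORC4 (chromosome 2, 148687965 to 148779173, build GRCh37), an ATPase-fold subunit of the ring, was at 47.3, 47.3 and 45.4 CPM in CKI, 44.7, 45.4 and 43.1 in Kushen and 37.8, 35.2 and 33.5 in Baituling. Its Baituling libraries were again the 3 lowest, and it was 1.31-fold higher in CKI than in Baituling (log2 0.39 ± 0.06, adjusted p = 3e-06) and 1.25-fold higher in Kushen (log2 0.32 ± 0.06, adjusted p = 4.32e-05). With library totals both genes stayed higher in CKI and Kushen.

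ORC6, which helps to recruit CDT1 and the helicase, was at 16.6, 16.8 and 17.02 CPM in CKI, 18.5, 21.2 and 18.6 in Kushen and 25.7, 21.5 and 27.00 in Baituling. The CKI libraries were lowest, the Kushen libraries stood between, and the groups did not overlap. It was lower than in Baituling, at -0.56 ± 0.08 in CKI (adjusted p = 5.13e-06) and -0.35 ± 0.08 in Kushen (adjusted p = 0.00081), the latter not past the test with library totals (-0.14, adjusted p = 0.133). Against Kushen, CKI stood at -0.21 ± 0.08 (adjusted p = 0.0524) and passed without Kushen replicate 1 or 3 or any single Baituling library (-0.25 to -0.21, adjusted p from 0.0302 to 0.0478). With no CKI or Kushen library left out, ORC6 passed under the size factors of DESeq2 (-0.22, adjusted p = 0.0378) and without a filter on low counts (-0.22, adjusted p = 0.0263). It also passed with only the treatments compared (-0.20, adjusted p = 0.0412), but not with the other scalings or by DESeq2's test. ORC5 was at 16.3, 14.7 and 16.98 CPM in CKI, 13.8, 16.4 and 13.8 in Kushen and 21.5, 16.8 and 20.2 in Baituling. CKI and Baituling overlapped in ORC5, and its call in CKI against Baituling (-0.28 ± 0.09, adjusted p = 0.0105) was lost without CKI replicate 2 (-0.23, adjusted p = 0.0577) or Baituling replicate 1 (-0.21, adjusted p = 0.0785). In Kushen it was lower, at -0.41 ± 0.10 (adjusted p = 0.000761).

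ORC1, the subunit whose protein is removed after licensing in human cells, was at 16.5, 13.7 and 16.9 CPM in CKI, 14.6, 16.1 and 16.1 in Kushen and 16.7, 16.5 and 17.00 in Baituling. The groups lay close together, with a log2 fold change of -0.09 ± 0.09 in CKI against Baituling (adjusted p = 0.342). This value turned to 0.20 with library totals (adjusted p = 0.0407). ORC3 was at 31.2, 30.9 and 31.5 CPM in CKI, 32.8, 31.2 and 29.5 in Kushen and 30.2, 30.7 and 32.02 in Baituling. Its libraries overlapped in all comparisons, and its value in CKI against Baituling was 0.01 ± 0.06 (adjusted p = 0.878) and turned to -0.01 with DESeq2. With library totals ORC3 was higher than in Baituling, at 0.30 in CKI (adjusted p = 0.00022) and 0.22 in Kushen (adjusted p = 0.00347).

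Of the 3 genes of helicase loading and its inhibition, CDT1 had the largest fall against Baituling. CDT1 (chromosome 16, 88870197 to 88875666), which brings MCM2-7 to ORC, was at 19.4, 19.3 and 20.6 CPM in CKI, 19.3, 24.00 and 24.97 in Kushen and 67.5, 62.7 and 62.2 in Baituling. Every CKI and Kushen library lay far below the lowest Baituling library. CDT1 was 3.25-fold lower in CKI (log2 -1.70 ± 0.08, adjusted p = 1.1e-13) and 2.82-fold lower in Kushen (log2 -1.50 ± 0.07, adjusted p = 9.13e-13) than in Baituling. Between CKI and Kushen the libraries overlapped through Kushen replicate 1, and the difference of -0.20 ± 0.08 did not pass the test (adjusted p = 0.0564), while it was -0.31 without that library (adjusted p = 0.00115) and -0.21 without Baituling replicate 1 (adjusted p = 0.0415). With all libraries CDT1 passed under the size factors of DESeq2 (-0.22, adjusted p = 0.0407) and upper quartile scaling (-0.20, adjusted p = 0.0485). It also passed without a filter on low counts (-0.21, adjusted p = 0.0176) and by DESeq2's test (-0.22, adjusted p = 0.0440). The other alternatives with no single library left out gave no call.

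GMNN encodes geminin, the inhibitor of CDT1. It was at 67.4, 67.2 and 65.9 CPM in CKI, 84.7, 77.5 and 76.6 in Kushen and 113, 102 and 108 in Baituling. The 3 groups were ordered CKI, Kushen, Baituling with no overlap. CKI was lower, at -0.69 ± 0.05 against Baituling (adjusted p = 2.89e-10) and at -0.25 ± 0.05 against Kushen (adjusted p = 0.000682).

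CDC6, the ATPase that works with ORC during loading, changed least of the 3 against Baituling. Its level was 72.96, 74.9 and 75.9 CPM in CKI, 85.01, 90.9 and 83.4 in Kushen and 92.6, 86.03 and 81.8 in Baituling. The CKI libraries lay below all others, and the Kushen and Baituling libraries overlapped. CKI was lower than Kushen, at -0.21 ± 0.05 (adjusted p = 0.0026) and than Baituling, at -0.22 ± 0.05 (adjusted p = 0.000767), the latter turning to 0.07 with library totals. In Kushen against Baituling the value was -0.01 ± 0.05 (adjusted p = 0.907), with its sign depending on the scaling.

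All 6 genes of the MCM2-7 helicase, the motor that opens DNA ahead of the fork, were lower in CKI and in Kushen than in Baituling. Of all genes, 37.0% and 36.1% were lower there. The median log2 fold change of the 6 was -1.28 in CKI and -1.07 in Kushen. In CKI 5 of the 6 and in Kushen 4 of the 6 fell by more than 1, beside 7.91% and 6.73% of all genes. MCM7 (chromosome 7, 99689856 to 99699563), a subunit of its catalytic core, was at 135, 132 and 138 CPM in CKI, 132, 139 and 146 in Kushen and 453, 420.2 and 417 in Baituling. CKI and Kushen overlapped and both lay far below Baituling. The level was 3.18-fold lower in CKI (log2 -1.67 ± 0.05, adjusted p = 1.31e-16) and 3.10-fold lower in Kushen (log2 -1.63 ± 0.05, adjusted p = 3.18e-16) than in Baituling. Part of MCM7 shares exon sequence with AP4M1 on the other strand, and reads of the 2 genes cannot be told apart in unstranded libraries.

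MCM5 was at 44.2, 47.1 and 46.5 CPM in CKI, 49.6, 60.9 and 59.7 in Kushen and 154, 141 and 136 in Baituling. It was 3.12-fold lower in CKI than in Baituling (log2 -1.64 ± 0.07, adjusted p = 2.63e-14) and 2.53-fold lower in Kushen (log2 -1.34 ± 0.07, adjusted p = 6.96e-13). All 3 groups were apart, with CKI lowest. MCM3 was at 135, 146 and 149 CPM in CKI, 183, 183 and 182 in Kushen and 371, 368 and 371 in Baituling. Its replicates were close, and CKI lay below Kushen and Kushen below Baituling. The fall was -1.37 ± 0.04 in CKI (adjusted p = 5.52e-16) and -1.02 ± 0.04 in Kushen (adjusted p = 5.65e-14).

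MCM2, whose tail also carries histones at the fork, was at 50.8, 52.3 and 54.1 CPM in CKI, 52.3, 58.5 and 54.4 in Kushen and 126, 119 and 112 in Baituling. CKI and Kushen overlapped, well below Baituling. The differences from Baituling were -1.18 ± 0.05 in CKI (adjusted p = 1.91e-13) and -1.11 ± 0.05 in Kushen (adjusted p = 7.28e-13). About 23.6% of the exon sequence of MCM2 overlaps a gene on the other strand, so its count is uncertain by an amount that was not measured.

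MCM6 was at 38.2, 42.2 and 45.03 CPM in CKI, 53.1, 55.6 and 51.3 in Kushen and 87.2, 87.3 and 80.8 in Baituling. CKI was lowest, with no overlap between groups, at -1.03 ± 0.06 against Baituling (adjusted p = 5.76e-12), while Kushen stood at -0.67 ± 0.06 (adjusted p = 3.34e-09). MCM4, which also belongs to the catalytic core, was at 69.7, 73.01 and 74.2 CPM in CKI, 83.4, 84.9 and 91.2 in Kushen and 132, 124 and 115 in Baituling. It was the least changed of the 6, at -0.78 ± 0.05 in CKI (adjusted p = 7.87e-11) and at -0.52 ± 0.05 in Kushen (adjusted p = 3.64e-08).

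Against Kushen, 4 of the 6 subunits were lower by the test, beside 20.2% of all genes. MCM6 (-0.35 ± 0.06, adjusted p = 0.000127), MCM3 (-0.35 ± 0.04, adjusted p = 3.69e-06), MCM5 (-0.30 ± 0.07, adjusted p = 0.00167) and MCM4 (-0.26 ± 0.05, adjusted p = 0.000777) were lower in CKI. MCM2 at -0.07 ± 0.06 (adjusted p = 0.329) and MCM7 at -0.04 ± 0.05 (adjusted p = 0.544) did not pass the test, and with library totals their values were 0.004 and 0.04. Within a library the ratio of MCM3 to MCM7 per kilobase, which does not depend on scaling and was chosen after its values were seen, was 0.804 to 0.889 with CKI, 1.002 to 1.11 with Kushen and 0.660 to 0.715 with Baituling. It was highest in Kushen and lowest in Baituling, with no overlap between the groups.

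**Figure D3:**
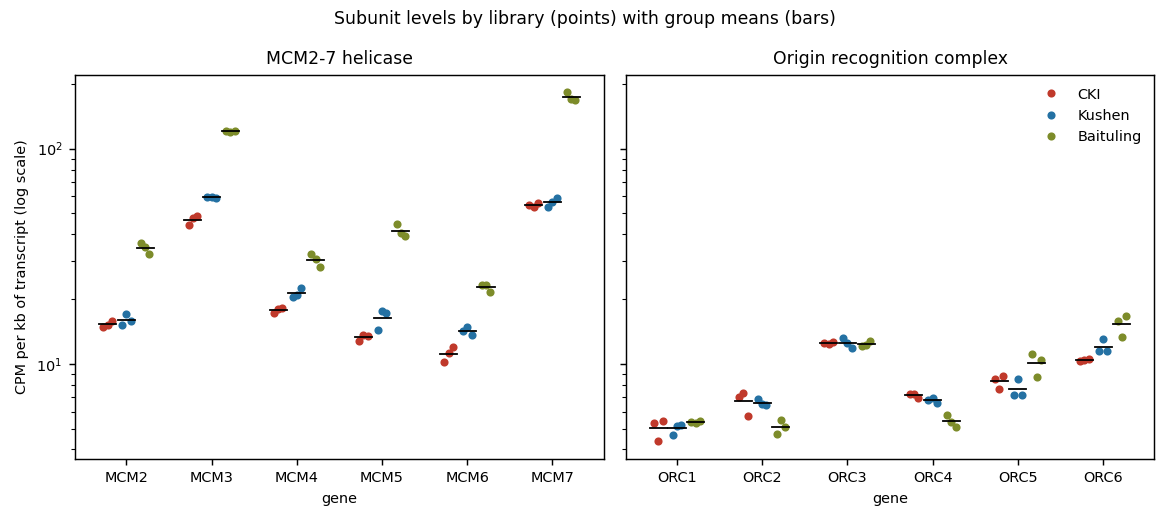
Level of the MCM2-7 genes (left) and the ORC1-6 genes (right) in CPM per kilobase of canonical transcript on a log scale, with a point per library and a bar at each group mean (n = 3). The Baituling points stand above the others for all 6 MCM genes, while for ORC2 and ORC4 they stand below.

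Of the 8 genes of helicase activation and origin firing, 7 were lower and CDC7 was higher in CKI than in Baituling. The same counts were found for Kushen. Of all genes, 37.0% were lower and 39.1% higher in CKI, and 36.1% and 35.6% in Kushen. CDC7 (chromosome 1, 91966408 to 91991321), the kinase that phosphorylates the loaded helicase, was at 29.3, 27.8 and 27.6 CPM in CKI, 28.5, 31.5 and 26.8 in Kushen and 16.98, 20.6 and 22.2 in Baituling. All CKI and Kushen libraries were above all Baituling libraries, and CKI and Kushen overlapped. It was 1.42-fold higher in CKI (log2 0.51 ± 0.08, adjusted p = 2.13e-05) and 1.46-fold higher in Kushen (log2 0.54 ± 0.08, adjusted p = 1.06e-05). These were the largest rises among the 49 members in both comparisons. DBF4, the subunit without which CDC7 is inactive, went the other way, at 17.3, 18.5 and 17.9 CPM in CKI, 17.9, 17.6 and 14.2 in Kushen and 33.95, 29.01 and 29.9 in Baituling. It was lower than in Baituling, at -0.79 ± 0.08 in CKI (adjusted p = 4.82e-08) and -0.90 ± 0.08 in Kushen (adjusted p = 1.12e-08).

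The GINS complex holds the active helicase together. All 4 of its genes were lower in CKI and Kushen than in Baituling, beside 37.0% and 36.1% of all genes. GINS2 (chromosome 16, 85709804 to 85723679) was at 8.32, 7.82 and 8.61 CPM in CKI, 9.58, 9.76 and 10.6 in Kushen and 25.9, 21.1 and 23.2 in Baituling. Its groups did not overlap, and it was 2.84-fold lower in CKI (log2 -1.51 ± 0.09, adjusted p = 9.14e-12) and 2.35-fold lower in Kushen (log2 -1.24 ± 0.09, adjusted p = 1.94e-10). GINS4 was at 19.6, 21.7 and 24.2 CPM in CKI, 25.8, 25.5 and 25.2 in Kushen and 60.4, 59.5 and 59.8 in Baituling, close among Baituling libraries, with falls of -1.46 ± 0.06 in CKI (adjusted p = 9.86e-14) and -1.23 ± 0.06 in Kushen (adjusted p = 1.5e-12). Its exon sequence overlaps genes on the other strand, and the largest overlap with any single gene covers about 21.0% of it. GINS1 was at 16.8, 17.7 and 17.1 CPM in CKI, 20.8, 19.8 and 21.5 in Kushen and 41.3, 36.03 and 38.6 in Baituling. Its CKI libraries were lowest and the groups were apart, with -1.17 ± 0.07 in CKI (adjusted p = 4.93e-12) and -0.90 ± 0.07 in Kushen (adjusted p = 2.74e-10). GINS3 was least changed, with -0.60 ± 0.09 (adjusted p = 1.22e-05) and -0.73 ± 0.10 (adjusted p = 1.37e-06).

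Against Kushen, CKI was lower for GINS1 (-0.27 ± 0.07, adjusted p = 0.00474), GINS2 (-0.27 ± 0.10, adjusted p = 0.0321) and GINS4 (-0.23 ± 0.07, adjusted p = 0.0126). The call of GINS2 was lost without CKI replicate 1 or 2 or Kushen replicate 2 or 3, with adjusted p from 0.0511 to 0.113. That of GINS4 was lost without CKI replicate 1 (-0.15, adjusted p = 0.0936). GINS3 was at 0.14 ± 0.10 and did not pass the test (adjusted p = 0.293).

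CDC45, the partner that with GINS turns the MCM ring into the working helicase, was at 15.4, 15.8 and 19.4 CPM in CKI, 17.8, 18.1 and 18.5 in Kushen and 43.9, 40.2 and 37.4 in Baituling. The Baituling libraries were highest and the CKI and Kushen libraries overlapped. It was 2.41-fold lower in CKI (log2 -1.27 ± 0.08, adjusted p = 2.78e-11) and 2.24-fold lower in Kushen (log2 -1.16 ± 0.08, adjusted p = 1.38e-10) than in Baituling. Between CKI and Kushen it did not pass the test (adjusted p = 0.348) unless CKI replicate 3 was left out (-0.22, adjusted p = 0.0475). MCM10, needed for the start of unwinding, was lower, at -0.77 ± 0.07 in CKI (adjusted p = 2.46e-09) and -0.68 ± 0.07 in Kushen (adjusted p = 2.02e-08).

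Polymerase alpha and its primase make the first nucleotides of each new strand. All 4 genes were lower in CKI and in Kushen than in Baituling with TMM, beside 37.0% and 36.1% of all genes. None of the 4 fell by more than 1 on the log2 scale. POLA1, the catalytic subunit, was at 14.4, 14.7 and 15.96 CPM in CKI, 17.5, 18.3 and 17.5 in Kushen and 27.03, 31.6 and 31.03 in Baituling. Baituling was highest and CKI lowest, with no overlap. The difference from Baituling was -0.99 ± 0.07 in CKI (adjusted p = 3.15e-10) and -0.75 ± 0.07 in Kushen (adjusted p = 2.12e-08). CKI was lower than Kushen, at -0.24 ± 0.08 (adjusted p = 0.0165), a call lost without CKI replicate 1 or 2 or Kushen replicate 2 (adjusted p from 0.0548 to 0.0691).

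POLA2, the accessory subunit, was at 17.9, 21.2 and 21.01 CPM in CKI, 18.7, 18.6 and 19.7 in Kushen and 23.5, 21.8 and 23.4 in Baituling. CKI and Kushen lay a little below Baituling. Its difference in CKI of -0.19 ± 0.07 (adjusted p = 0.0243) turned to 0.09 with library totals and was not past the test without CKI replicate 1, Baituling replicate 1 or Baituling replicate 3 (adjusted p from 0.0627 to 0.159). The primase genes PRIM1 and PRIM2 were at -0.93 ± 0.10 (adjusted p = 9.48e-08) and -0.31 ± 0.06 (adjusted p = 0.000151) in CKI against Baituling. With library totals PRIM2 did not pass the test, at -0.02 in CKI (adjusted p = 0.763) and -0.14 in Kushen (adjusted p = 0.0603). POLA2 in Kushen did not pass either (-0.06, adjusted p = 0.471). PRIM1 shares exon sequence with NACA on the same strand and PRIM2 with the copy PRIM2BP, so the counts of PRIM1 and PRIM2 are uncertain.

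Polymerase delta extends the lagging strand and polymerase epsilon the leading strand. All 5 of their genes listed were lower in CKI and Kushen than in Baituling, beside 37.0% and 36.1% of all genes. POLE2, a subunit of epsilon, was at 9.85, 10.8 and 10.9 CPM in CKI, 12.6, 14.4 and 13.3 in Kushen and 30.8, 30.4 and 27.4 in Baituling. The 3 groups were apart with CKI lowest, and the fall was 2.80-fold in CKI (log2 -1.49 ± 0.08, adjusted p = 1.65e-12) and 2.20-fold in Kushen (log2 -1.14 ± 0.08, adjusted p = 9.06e-11). POLD2, a regulatory subunit of delta, was at 155, 153 and 163 CPM in CKI, 188, 212 and 212 in Kushen and 367, 333 and 331 in Baituling. Its groups were ordered in the same way, with -1.13 ± 0.05 in CKI (adjusted p = 2.34e-13) and -0.75 ± 0.05 in Kushen (adjusted p = 1.36e-10) against Baituling.

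POLD1, the catalytic subunit of delta, was at 73.7, 76.5 and 73.6 CPM in CKI, 71.9, 85.3 and 93.02 in Kushen and 116, 105 and 107 in Baituling. It was the least changed of the 5 in CKI against Baituling (-0.55 ± 0.07, adjusted p = 4.08e-07), and CKI and Kushen overlapped. The catalytic subunit of epsilon, POLE, was at -0.69 ± 0.05 (adjusted p = 3.53e-10), and POLD3 stood at -0.83 ± 0.06 (adjusted p = 5.6e-10). Against Kushen, CKI was lower for POLD2 (-0.38 ± 0.05, adjusted p = 1.49e-05) and POLE2 (-0.35 ± 0.08, adjusted p = 0.00259). Among the libraries left out in turn, POLD1 passed only without Kushen replicate 1 (-0.26, adjusted p = 0.000445) or Baituling replicate 1 (-0.17, adjusted p = 0.0410). With all libraries it did not pass in the main fit (adjusted p = 0.0678). It did pass under the size factors of DESeq2 (-0.18, adjusted p = 0.0450), without a filter on low counts (-0.17, adjusted p = 0.00841) and by DESeq2's test (-0.18, adjusted p = 0.0492). The other scalings and the stricter filter gave no call.

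PCNA is the sliding clamp that keeps polymerases on DNA. It was at 111, 109.8 and 118 CPM in CKI, 133, 139 and 142 in Kushen and 219, 213 and 206 in Baituling. CKI lay below Kushen and Kushen below Baituling in every library. The level was 1.88-fold lower in CKI than in Baituling (log2 -0.91 ± 0.04, adjusted p = 5.55e-13), 1.54-fold lower in Kushen (log2 -0.62 ± 0.04, adjusted p = 2.08e-10) and 1.22-fold lower in CKI than in Kushen (log2 -0.29 ± 0.04, adjusted p = 5.68e-05). RFC1 (chromosome 4, 39289076 to 39367995), the large subunit of the clamp loader, was at 84.1, 84.4 and 86.7 CPM in CKI, 85.7, 80.7 and 81.00 in Kushen and 64.8, 68.8 and 64.5 in Baituling. All Baituling libraries were below the others, and CKI and Kushen overlapped. It was higher, at 0.37 ± 0.05 in CKI (adjusted p = 7.29e-07) and 0.32 ± 0.05 in Kushen (adjusted p = 4.94e-06).

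The 4 small subunits of the loader were lower in CKI and in Kushen than in Baituling, beside 37.0% and 36.1% of all genes. In CKI they ranged from -0.66 ± 0.05 for RFC2 (adjusted p = 7.22e-10) to -0.48 ± 0.05 for RFC5 (adjusted p = 5.55e-08), with RFC3 at -0.61 ± 0.07 (adjusted p = 9.39e-08) and RFC4 at -0.59 ± 0.05 (adjusted p = 1.12e-09). RFC1 and its 4 partners thus moved in opposite directions, on the scale of library totals as well for CKI. In CKI against Kushen, RFC4 (-0.27 ± 0.05, adjusted p = 0.000221) and RFC5 (-0.24 ± 0.05, adjusted p = 0.0011) were lower, and RFC1 was at 0.04 ± 0.05 (adjusted p = 0.458).

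RPA coats the single strands that the helicase exposes. RPA3, its smallest subunit, was at 38.99, 42.9 and 40.2 CPM in CKI, 51.8, 47.8 and 48.2 in Kushen and 60.3, 59.7 and 62.9 in Baituling. The groups were apart, with CKI lowest, and CKI was lower, at -0.58 ± 0.05 against Baituling (adjusted p = 8.3e-09) and at -0.28 ± 0.05 against Kushen (adjusted p = 0.000498). RPA2, the subunit phosphorylated under replication stress, was at 75.7, 76.8 and 80.02 CPM in CKI, 75.3, 78.8 and 76.6 in Kushen and 88.7, 76.8 and 83.03 in Baituling. Its libraries overlapped between groups, and CKI against Baituling gave -0.10 ± 0.05 (adjusted p = 0.0948), 0.19 with library totals and -0.15 without Baituling replicate 2 (adjusted p = 0.0156). Kushen against Baituling gave -0.11 ± 0.05 (adjusted p = 0.0671), and -0.16 without the same library (adjusted p = 0.0118). RPA1, the largest subunit, was at -0.31 ± 0.04 in CKI (adjusted p = 2.35e-06) and -0.29 ± 0.04 in Kushen (adjusted p = 6.53e-06) against Baituling, and at -0.03 and -0.08 with library totals, not past the test.

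Among the genes that finish lagging strand fragments, LIG1 (chromosome 19, 48618702 to 48673860), the ligase that seals them, had the largest fall. It was at 22.3, 22.5 and 19.6 CPM in CKI, 31.5, 30.6 and 32.9 in Kushen and 80.4, 74.03 and 76.6 in Baituling. The 3 groups were clearly apart. LIG1 was 3.59-fold lower in CKI (log2 -1.84 ± 0.06, adjusted p = 1.37e-15) and 2.43-fold lower in Kushen (log2 -1.28 ± 0.06, adjusted p = 2.76e-13) than in Baituling. At 1.48-fold (log2 -0.56 ± 0.06, adjusted p = 1.66e-06) it also had the largest difference between CKI and Kushen among the 49 members. FEN1, the nuclease that trims flaps before ligation, was at -0.85 ± 0.05 in CKI (adjusted p = 2.55e-12) and -0.64 ± 0.05 in Kushen (adjusted p = 2.3e-10) against Baituling.

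RNASEH2A (chromosome 19, 12917398 to 12924454), the catalytic subunit of the enzyme that removes RNA primers and misplaced ribonucleotides, was at 76.96, 76.7 and 84.4 CPM in CKI, 91.4, 93.8 and 98.5 in Kushen and 233, 214 and 219.7 in Baituling. CKI was lowest and Baituling highest without overlap. It was lower than in Baituling, at -1.49 ± 0.05 in CKI (adjusted p = 1.6e-15) and -1.23 ± 0.05 in Kushen (adjusted p = 3.51e-14). Most of its exon sequence (53.3%) is shared with THSD8 on the same strand, so its count is uncertain. DNA2, a nuclease and helicase for long flaps, was at 11.7, 13.5 and 13.2 CPM in CKI, 13.1, 10.9 and 11.8 in Kushen and 16.8, 17.5 and 15.9 in Baituling. The Baituling libraries were highest, and the values against Baituling were -0.39 ± 0.09 in CKI (adjusted p = 0.000471), not past the test with library totals, and -0.49 ± 0.09 in Kushen (adjusted p = 6.06e-05).

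The nucleotide supply genes had the lowest median of the 10 roles in both comparisons with Baituling, -1.68 in CKI and -1.48 in Kushen. TYMS (chromosome 18, 657653 to 673578), thymidylate synthase and the target of fluorouracil, was at 17.97, 17.7 and 21.1 CPM in CKI, 26.7, 26.6 and 27.7 in Kushen and 88.5, 87.2 and 85.1 in Baituling. The groups were widely apart and CKI was lowest. TYMS was 4.59-fold lower in CKI (log2 -2.20 ± 0.06, adjusted p = 1.35e-16) and 3.22-fold lower in Kushen (log2 -1.69 ± 0.06, adjusted p = 5.38e-15) than in Baituling, and 1.42-fold lower in CKI than in Kushen (log2 -0.51 ± 0.07, adjusted p = 7.39e-06). The fall against Baituling in CKI was the largest among the members. The exon sequence of TYMS overlaps ENOSF1 and TYMSOS on the other strand, and the larger of these overlaps covers about 39.9% of it. ENOSF1 itself was at 14.98, 17.2 and 13.3 CPM in CKI, 21.4, 15.3 and 18.7 in Kushen and 22.9, 23.4 and 24.3 in Baituling.

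Ribonucleotide reductase makes deoxynucleotides, with RRM2 as the subunit that is limiting and varies with the cell cycle. RRM2 (chromosome 2, 10260825 to 10351851) was at 47.6, 49.8 and 53.99 CPM in CKI, 48.7, 53.3 and 53.2 in Kushen and 176, 167 and 168 in Baituling. CKI and Kushen overlapped, and every Baituling library was more than 3-fold above each of them. It was 3.37-fold lower in CKI (log2 -1.75 ± 0.05, adjusted p = 3.05e-16) and 3.29-fold lower in Kushen (log2 -1.72 ± 0.05, adjusted p = 7.59e-16), the largest fall of any member in Kushen. Between CKI and Kushen the value was -0.04 ± 0.05 (adjusted p = 0.63), and it turned to 0.04 with library totals and to 0.003 without CKI replicate 1.

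RRM1, the stable large subunit, was at 88.4, 94.4 and 94.6 CPM in CKI, 109.6, 103 and 107 in Kushen and 162, 169 and 166 in Baituling. Its groups were apart, and RRM1 was lower, at -0.84 ± 0.04 in CKI (adjusted p = 1.34e-12) and -0.64 ± 0.04 in Kushen (adjusted p = 1.16e-10) against Baituling. Against Kushen, CKI was lower for RRM1 as well (-0.21 ± 0.04, adjusted p = 0.00112). TK1, the thymidine kinase of the salvage pathway and a serum marker of proliferation, was at 77.4, 81.3 and 87.01 CPM in CKI, 92.3, 109.9 and 107 in Kushen and 268, 240.2 and 239 in Baituling. CKI lay below Kushen and Kushen below Baituling, with -1.60 ± 0.06 in CKI (adjusted p = 1.7e-14), -1.27 ± 0.06 in Kushen (adjusted p = 6.9e-13) and -0.33 ± 0.06 in CKI against Kushen (adjusted p = 0.000419).

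**Figure D4:**
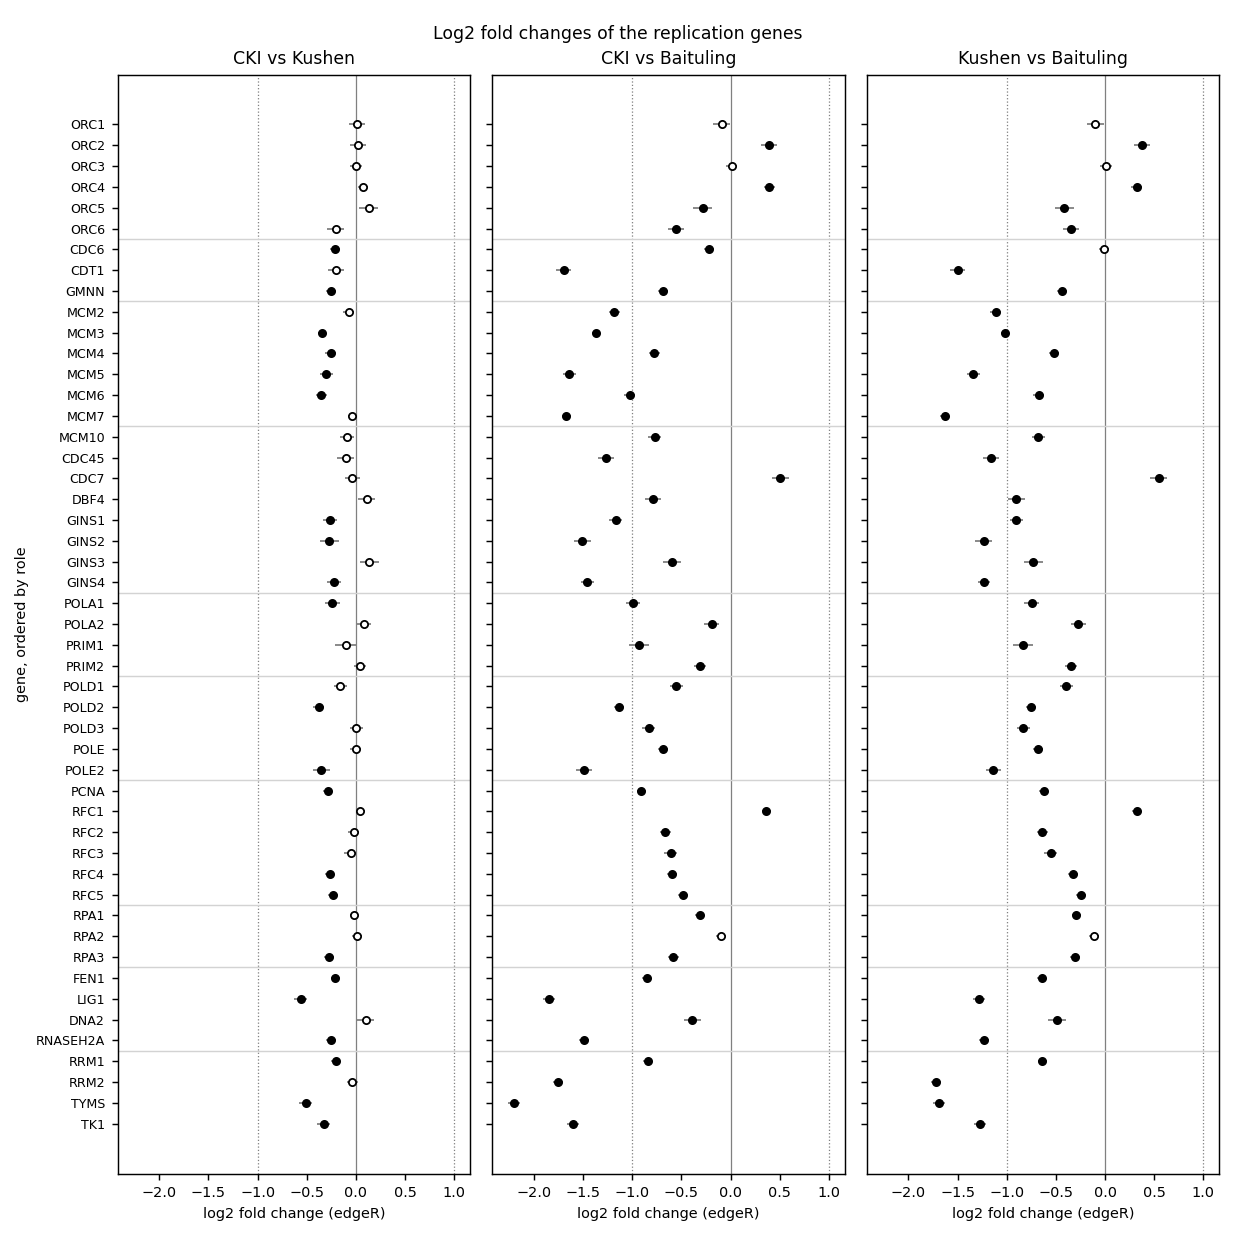
Log2 fold change from edgeR of each of the 49 members (rows, ordered by role) in the 3 comparisons, with bars of 1 SE. Filled points have an adjusted p under 0.05 and open points do not, and dotted lines mark -1 and 1. Points beyond -1 number 0, 17 and 14 from left to right.

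Ratios within a library do not depend on the scaling between libraries, and 4 were compared, per kilobase of transcript. The ratio of CDT1 to its inhibitor GMNN ranged over the libraries from 0.272 to 0.293 with Baituling, 0.136 to 0.148 with CKI and 0.108 to 0.155 with Kushen. The ratio of RRM2 to RRM1 was 0.952 to 1.04 with Baituling, 0.509 to 0.550 with CKI and 0.429 to 0.499 with Kushen. The ratio of the summed MCM2-7 level to that of ORC2 to ORC5 was 12.3 to 13.2 with Baituling, 4.37 to 4.81 with CKI and 5.23 to 5.86 with Kushen. In all 3 ratios Baituling lay above both other treatments without overlap. ORC1 to ORC2, whose proteins meet in the same complex, gave 0.969 to 1.13 with Baituling, 0.597 to 0.946 with CKI and 0.685 to 0.801 with Kushen.

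Of the 12 tests (4 ratios in 3 comparisons), 10 reached the smallest p that an exact two-sided permutation test of 3 libraries against 3 allows, 0.1, with an adjusted p of 0.12, so none could pass 0.05. On the log2 scale the ratio of MCM2-7 to ORC2-5 differed from Baituling by -1.48 in CKI and -1.23 in Kushen, and that of CDT1 to GMNN by -1.01 and -1.07. Between CKI and Kushen, MCM2-7 to ORC2-5 was lower in CKI and RRM2 to RRM1 higher in CKI, without overlap, while CDT1 to GMNN (exact p = 0.9) and ORC1 to ORC2 (exact p = 1) overlapped.

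**Figure D5:**
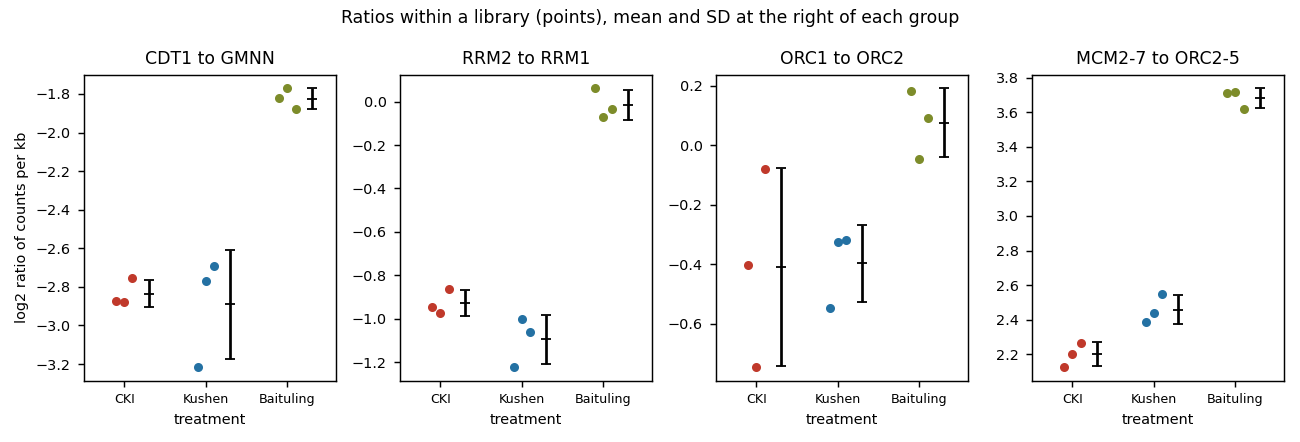
Log2 ratio of counts per kilobase within each library (points) for 4 pairs of genes or complexes, with the mean and SD (n = 3) at the right of each group and a separate vertical scale for each panel. The Baituling points stand above all others in each panel, and CKI is lowest for MCM2-7 to ORC2-5.

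A second list holds 46 other genes of replication and its accessory steps, of which 45 were in the table and all 45 were tested. Against Baituling, CKI was lower for 34 and higher for 6, beside 37.0% and 39.1% of all genes. Kushen was lower for 33 and higher for 6, beside 36.1% and 35.6%. PIF1, a helicase, was at 4.32, 3.18 and 3.48 CPM in CKI, 4.39, 3.53 and 4.04 in Kushen and 18.4, 16.5 and 18.99 in Baituling and had the largest fall of the list, -2.29 ± 0.12 in CKI (adjusted p = 8.81e-13) and -2.17 ± 0.12 in Kushen (adjusted p = 2.66e-12). Its Baituling libraries stood far above the rest. RRM2B, the p53-inducible partner that can replace RRM2, was at 67.4, 66.2 and 66.8 CPM in CKI, 63.3, 69.8 and 65.8 in Kushen and 37.6, 39.3 and 37.04 in Baituling. It had the largest rise, 0.82 ± 0.05 in CKI (adjusted p = 2.64e-11) and 0.80 ± 0.05 in Kushen (adjusted p = 4.65e-11), opposite to RRM2. Against Kushen, CKI was lower for 17 and higher for 4, beside 20.2% and 19.6% of all genes. DUT, the dUTPase that keeps uracil out of DNA and feeds TYMS, was lowest (-0.67 ± 0.05, adjusted p = 7.4e-09), and DONSON, a factor of helicase assembly, was highest (0.28 ± 0.07, adjusted p = 0.00463).

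Genes of mitosis had lower medians than the replication genes in the same libraries. All 35 genes of a mitosis list were lower in CKI and in Kushen than in Baituling, where 37.0% and 36.1% of all genes were lower. Their medians were -1.64 and -1.39, beside -0.78 and -0.64 for the replication genes. The largest falls were those of KIF20A, a kinesin of cytokinesis, in CKI (-2.86 ± 0.06, adjusted p = 1.36e-18) and of the mitotic kinase gene PLK1 in Kushen (-2.35 ± 0.05, adjusted p = 9.28e-18), and the smallest were those of the kinetochore gene KNL1 in CKI (-0.70 ± 0.08, adjusted p = 3.49e-07) and the checkpoint kinase gene TTK in Kushen (-0.57 ± 0.05, adjusted p = 1.16e-08). Against Kushen, 24 of the 35 were lower in CKI and 0 higher, beside 20.2% and 19.6% of all genes. The median of the 35 was -0.25, from -0.65 ± 0.06 for the kinetochore gene SPC24 (adjusted p = 2.26e-07) to 0.09 ± 0.05 for INCENP of the chromosomal passenger complex (adjusted p = 0.173). The difference between the lists was not tested.

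Regulators of the passage from G1 to S were mixed. Of the 17 listed, 16 were tested, and in CKI 11 were lower and 4 higher than in Baituling, beside 37.0% and 39.1% of all genes. MYBL2, a transcription factor that is itself an E2F target, had the largest fall (-2.10 ± 0.06, adjusted p = 1.06e-16). CDKN1A, which encodes the kinase inhibitor p21, was at 352, 373 and 378 CPM in CKI, 208, 234 and 228 in Kushen and 223, 223 and 222 in Baituling. CKI stood above both other treatments, which overlapped, with 0.72 ± 0.05 against Kushen (adjusted p = 6.97e-10) and 0.72 ± 0.05 against Baituling (adjusted p = 2.65e-11). CCND1, the cyclin that drives RB phosphorylation, had the largest fall in CKI against Kushen (-0.47 ± 0.04, adjusted p = 4.59e-08). In Kushen against Baituling 11 were lower and 1 was higher, beside 36.1% and 35.6% of all genes. The values ran from -1.91 for E2F8, a repressor among the E2F factors, to 0.39 for E2F7, its relative (adjusted p = 9.85e-12 and 1.83e-07).

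Per kilobase of transcript, the level of the members spanned a wide range within each treatment. The median was 11.7 CPM per kilobase in CKI, 14.2 in Kushen and 22.7 in Baituling. POLD2 was the highest member in each treatment, at 97.4, 127 and 214 CPM per kilobase, and the lowest were POLA1 in CKI (2.73) and DNA2 in Kushen (2.80) and Baituling (3.93).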

How the data were processed

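RNA of 9 libraries, 3 per treatment, was read as unstranded paired-end sequencing. The authors trimmed reads with Trim Galore 0.3.7, aligned them with STAR 2.5.3a to hg19 and deposited raw whole-number counts per gene, while the counting program and annotation are not given in the sources used here. Of 24566 rows, 222 repeated an Ensembl gene with identical counts and were dropped, leaving 24344 genes, 4363 of them at 0 in every library. Positions came from GENCODE 44 on GRCh37, the assembly of hg19, and promoters from RefSeq on GRCh38.p14.

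Genes were filtered by filterByExpr (minimum count 10, minimum total 15), which removed 10149 and kept 14195, among them all 49 members. Libraries were scaled by TMM (factors 1.075 to 1.099 for CKI, 1.024 to 1.047 for Kushen, 0.877 to 0.899 for Baituling), and all 9 were fitted together by glmQLFit and glmQLFTest of edgeR 4.0.16 in R 4.3.3, with treatment as the only term and two-sided p-values adjusted by Benjamini-Hochberg over all genes. The common biological coefficient of variation was 4.53%. A member was called at an adjusted p under 0.05, and the study's threshold of a log2 fold change beyond 1 is given beside it.

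The members, lists and tests were chosen with earlier results of these data known, and the lists were kept as written. Within each role, values per library are given for the members with the largest and smallest log2 fold change in CKI against Baituling, those beyond the threshold, those opposite to their role group and those in a ratio. Of the other lists, the largest fall and rise per comparison are named. Replicates of a treatment differed by more than counting noise (chi-square per gene 1.70 to 6.85 over 9 pairs). Alternatives were other scalings, filters, DESeq2 1.42.0, only the treatments compared, a replicate block and leaving out libraries.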

Additional observations from a re-analysis of the deposited data

How the results depend on the processing

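Library totals in place of TMM changed the most: 2 members (CKI against Kushen) and 7 (CKI against Baituling) were then higher, the members' medians were -0.084, -0.49 and -0.43 in CKI against Kushen, CKI against Baituling and Kushen against Baituling, and of the other replication genes 11 were lower in the first and 11 and 12 higher in the others. Since these totals raise all genes together, the members' median less that of all genes was -0.81 under both scalings in CKI against Baituling. The shares of all genes called with library totals were not counted. Directions that turned with library totals in CKI against Kushen were MCM2 (0.0036), MCM7 (0.037) and RRM2 (0.039). This leaves out 11 members near 0 in that comparison, whose signs are described below. In CKI against Baituling the directions of ORC1 (0.20), ORC5 (0.0030), CDC6 (0.068), POLA2 (0.094) and RPA2 (0.19) turned. In Kushen against Baituling those of ORC1 (0.11), CDC6 (0.21) and RPA2 (0.10) did. Calls of lower members lost without a turn were GINS2, GINS4 and POLA1 in CKI against Kushen, and PRIM2, RPA1 and DNA2 in CKI against Baituling. In Kushen against Baituling they were ORC5, ORC6, POLA2, PRIM2, RFC5, RPA1 and RPA3. Calls of higher members gained without a turn were ORC4 and RFC1 in CKI against Kushen, and ORC3 in both comparisons with Baituling.

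Upper quartile scaling gave medians of -0.70 (CKI) and -0.57 (Kushen) against Baituling, and a minimum of 10 counts in every library gave -0.73 for CKI. DESeq2 called 2 other replication genes higher in CKI than in Kushen, and without Baituling replicates 2 and 3 there were 3 higher in Kushen than in Baituling. The ratio of MCM2-7 to ORC2-5 in CKI against Baituling was -1.56 when counts were not divided by length. ORC3 in CKI against Baituling turned to -0.0077 with the size factors and with the test of DESeq2, and CDC6 in Kushen against Baituling to 0.062 with upper quartile scaling, 0.026 with the stricter filter and 0.011 with only those treatments. Beside MCM7 and RRM2, 11 members within 0.06 of 0 in CKI against Kushen (such as POLE) took the other sign in some setting, at most to 0.07.

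Leaving out each library in turn gave 2 to 4 other replication genes higher in CKI than in Kushen, a members' median of -0.22 to -0.14 there and of -0.81 to -0.73 in CKI against Baituling. RRM2 ranged from -0.089 to 0.0034 in CKI against Kushen, ORC3 from -0.0081 to 0.030 in CKI and from -0.029 to 0.059 in Kushen against Baituling, and CDC6 from -0.051 to 0.052 in Kushen against Baituling. The log2 ratio of CDT1 to GMNN in CKI against Kushen ranged from -0.10 to 0.16 and that of ORC1 to ORC2 from -0.18 to 0.16. The counts of members lower and higher kept within 1.5 times their value in each of these fits. The cause of these changes was not tested.

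Deviations from the treatment means correlated from -0.07 to 0.12 between same-numbered libraries and from -0.15 to 0.18 between others. No shared shift by replicate number was seen. With 3 libraries per treatment this cannot tell whether same-numbered libraries were prepared together. A fit with the replicate block gave 22 lower members in CKI against Kushen, 42 lower and 4 higher in CKI against Baituling and 41 and 4 in Kushen against Baituling. At 178 counts or more per member, no member with a difference under 0.1 on the log2 scale passed the test.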

Other observations

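Some pairs of related genes on the second replication list, chosen after their values were seen, differed in direction in CKI against Baituling. Others moved together, such as CHAF1A (-0.38) with CHAF1B (-0.72) and TIMELESS (-0.40) with TIPIN (-0.53). Of all genes, 37.0% were lower and 39.1% higher in this comparison. TOP2A, the topoisomerase that varies with the cell cycle, had a log2 fold change of -1.35 in CKI against Baituling (edgeR adjusted p = 8.52e-16), while TOP1, which relaxes DNA ahead of the fork throughout the cycle, was higher at 0.48 (adjusted p = 1.52e-09). The histone chaperone ASF1B was lower at -1.64 (adjusted p = 3.81e-15) and its paralog ASF1A higher at 0.37 (adjusted p = 2.74e-05). Among the partners of RNASEH2A, RNASEH2B was lower at -1.47 (adjusted p = 2.31e-13) and RNASEH2C higher at 0.21 (adjusted p = 0.00371). NASP, a chaperone of free histones, was lower at -1.09 (adjusted p = 1.41e-14), whereas the summed histone level was higher in CKI. The difference within each pair was not tested.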
